A study of Rattus norvegicus with 4 samples.

Results

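The collagen genes are the rat genes whose symbol is Col, a number, a and a number, found on the array through the accession that each probe carries. They numbered 22 genes, measured by 32 probes, of 26650 genes and 30367 probes on the array, and of 44 collagen genes in the RefSeq table of rat genes. Of these, 21 genes had a probe well above background in Cy5 or in Cy3 on at least 2 arrays and were tested among 23437 genes, and the probe of each was well above background in both channels on all 4 arrays. Col13a1, a transmembrane collagen, was not tested: its probe was not well above background in Cy5 on any array, and in Cy3 it was on 1. Col4a2, Col5a2, Col6a1, Col6a3 and Col12a1 had no probe matched by accession and were not analysed here.

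Total RNA of the spinal dorsal horn, the part of the cord that receives sensory input, was hybridised to 4 Agilent 2-colour arrays. On the 2 oxaliplatin arrays the Cy5 dye marked, per the labels, RNA of male rats aged 6 weeks and treated with oxaliplatin, a platinum chemotherapy drug that can cause a painful neuropathy, sampled on day 10. On the 2 vehicle arrays Cy5 marked RNA of male rats of the same age treated with the vehicle, also on day 10. On all 4 arrays Cy3 marked RNA of untreated male rats aged 6 weeks. The sources used here do not give the strain or the dose, nor whether rats were pooled. The labels call the arrays of a group biological replicates, and p-values measure only the spread between these arrays. No array had the dyes swapped, so a Cy5/Cy3 ratio holds both the difference between the RNAs and any dye effect, and these cannot be told apart. The written labelling protocol names Cy3 only, so the direction of each ratio rests on the dye labels. The oxaliplatin arrays shared a slide and the vehicle arrays shared another, so group and slide cannot be told apart.

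Collagens are triple-helical proteins of the extracellular matrix. Fibrillar collagens, such as types I and III, form the tensile fibres of connective tissue, and in the nervous system these lie mainly in the meninges, the vessel walls and the sheaths of peripheral nerves. Type IV collagen forms the sheet-like network of basement membranes, which surround blood vessels and line the surface of the cord. Other classes decorate fibrils (FACIT collagens), form beaded filaments or anchoring fibrils, span the cell membrane, or are cut to release fragments that act on vessels (multiplexins).

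Promoter sequences, 300 bases long and spanning the annotated start, were held in RefSeq for 17 of the 22 genes (build GRCr8). They were searched on both strands for TATAAA, for CCAAT and for GGGCGG, letters often found in TATA, CCAAT and GC boxes. None of the 3 motifs contains another, and neighbouring matches of the same motif can overlap. TATAAA was found in 2 of the 17 windows, against 14.2% of all 33469 promoter windows of the same length. CCAAT was found in 4 of the 17, against 37.5% of all windows. GGGCGG was found in 10 of the 17, against 33.1% of all windows. Sequences of 3 genes that differ in their Cy5/Cy3 ratios are shown, with the matched letters in capitals: Col1a2 at chr4:33518307-33518606 on the plus strand, Col4a1 at chr16:84885347-84885646 on the plus strand and Col11a2 at chr20:4817599-4817898 on the minus strand.
Col1a2: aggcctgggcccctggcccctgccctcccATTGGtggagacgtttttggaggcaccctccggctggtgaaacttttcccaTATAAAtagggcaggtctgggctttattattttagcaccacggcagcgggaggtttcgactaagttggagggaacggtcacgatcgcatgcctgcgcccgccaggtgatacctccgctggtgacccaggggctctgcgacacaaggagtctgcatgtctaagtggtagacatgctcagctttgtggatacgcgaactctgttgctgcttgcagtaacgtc
Col4a1: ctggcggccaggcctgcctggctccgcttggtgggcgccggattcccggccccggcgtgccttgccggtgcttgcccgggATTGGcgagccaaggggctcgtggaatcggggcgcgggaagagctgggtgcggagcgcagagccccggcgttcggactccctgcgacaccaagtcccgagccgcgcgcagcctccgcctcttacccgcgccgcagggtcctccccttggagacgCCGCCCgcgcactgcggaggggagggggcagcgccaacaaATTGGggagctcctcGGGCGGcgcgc
Col11a2: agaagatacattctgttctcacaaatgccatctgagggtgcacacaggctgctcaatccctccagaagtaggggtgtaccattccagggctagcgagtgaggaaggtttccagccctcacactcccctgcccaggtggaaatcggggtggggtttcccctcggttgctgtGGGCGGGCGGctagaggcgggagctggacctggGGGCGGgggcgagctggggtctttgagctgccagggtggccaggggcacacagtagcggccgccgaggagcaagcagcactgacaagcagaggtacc
The Col1a2 window holds a TATAAA match and a CCAAT match in reverse, the Col4a1 window holds CCAAT and GGGCGG matches but no TATAAA, and the Col11a2 window holds GGGCGG matches only. The Col4a1 window overlaps that of Col4a2 on the other strand by 176 bases, with the starts 77 bases apart. The Col4a4 window overlaps that of Col4a3 by 88 bases. These matches describe the windows, and none was set against a measured binding.

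The arrays carried 62976 spots each, 4259 of them controls. Probes well above background made up 82.7% to 85.4% of all probes in Cy5 and 76.8% to 88.1% in Cy3, and oxaliplatin replicate 2 had the dimmest Cy3 channel, with a median signal of 283.5 against 494 to 564 elsewhere. Precision is limited by there being only 4 arrays. Of the collagen spots, 0 were saturated and 0 were marked as outliers. All 11 spinal cord neuron markers and all 15 central glia markers on the array were above the filter on low signals, but so were all 10 Schwann cell and all 10 sensory ganglion neuron markers, which belong outside the cord. The cord lists had median log2 Cy5/Cy3 ratios of -0.38 and -1.06, and the Schwann cell and ganglion lists of 2.56 and 3.90, so the Cy5 RNA carried markers that go against the labelled tissue.

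The first comparison asks how collagen transcripts differed between the Cy5 and the Cy3 RNA over all 4 arrays. Transcripts of the type I and III fibrillar collagens were the most unequal, 5.70 to 7.31 times higher in Cy5. Those of Col14a1, Col15a1 and Col4a1 were 2.28 to 4.93 times higher in Cy5. Transcripts of Col11a2, Col7a1 and Col23a1 were 1.31 to 1.61 times higher in Cy3. Of the 21 genes tested, 13 were called higher in Cy5 and 6 lower, by limma at an adjusted p under 0.05, where p-values were adjusted across all genes by the Benjamini-Hochberg method. Over all genes tested, 28.5% were called higher and 26.0% lower. The median log2 ratio was 0.28 over the collagen genes (0.18 without oxaliplatin replicate 2) and 0.024 over all genes, whose 10th and 90th percentiles were -0.46 and 0.52. A mean log2 ratio of at least 1 was found for 28.6% of the collagen genes and for 3.49% of all genes. The ratio was above 0 on all 4 arrays for 14 collagen genes, against 33.2% of all genes, and below 0 on all 4 for 5, against 27.7%. In bulk RNA, fewer cells of a type and less RNA per cell cannot be told apart.

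**Figure D1:**
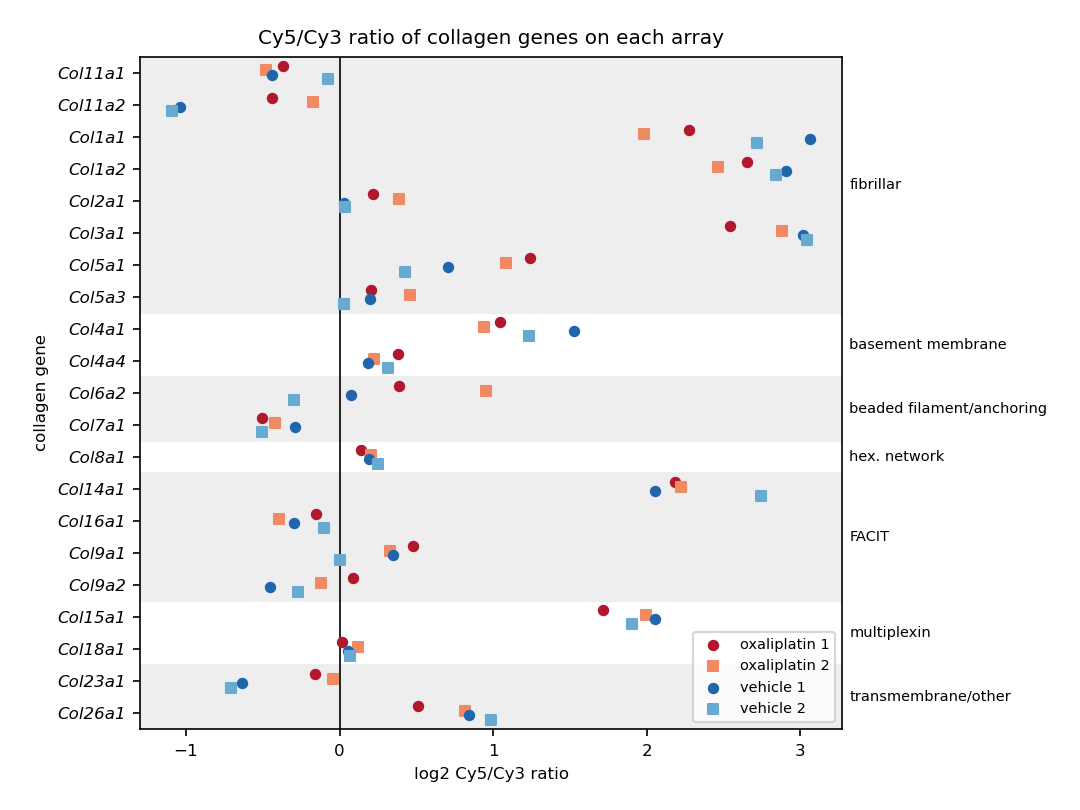
Each point is the normalised log2 Cy5/Cy3 ratio of a collagen gene on an array (x axis), with the genes grouped by class on the y axis and colours for the 4 arrays. Col1a1, Col1a2, Col3a1, Col14a1 and Col15a1 lie far to the right on every array, between 1.71 and 3.07, while Col11a2, Col7a1 and Col23a1 lie below 0 on every array.

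Among the fibrillar collagens, 8 of 11 genes in the reference were on the array and tested, and 6 were called higher and 2 lower, with a median log2 ratio of 0.54. Col1a1 and Col1a2 encode the 2 chains of type I collagen, the main protein of tough connective tissue. Col1a1 had log2 Cy5/Cy3 ratios of 2.27 and 1.98 on oxaliplatin replicates 1 and 2 and of 3.07 and 2.72 on vehicle replicates 1 and 2. The ratio was high on every array and higher on both vehicle arrays, and its mean was 2.51 ± 0.08 (SE, n = 4 arrays; limma adjusted p = 2.91e-06). Only 0.546% of all genes tested had a mean ratio at least as large. Col1a2 had ratios of 2.65 and 2.46 on the oxaliplatin arrays and of 2.91 and 2.84 on the vehicle arrays. Its mean was 2.71 ± 0.06 (SE, n = 4; limma adjusted p = 6.90e-07), and the arrays of the groups did not overlap. Col3a1, the chain of type III collagen, which mixes with type I in vessels and soft tissue, had ratios of 2.54 and 2.88 on the oxaliplatin arrays and of 3.01 and 3.04 on the vehicle arrays. Its mean of 2.87 ± 0.07 (SE, n = 4; limma adjusted p = 9.70e-07) was the highest of the 21 genes.

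The other fibrillar collagens were closer to equal. Col5a1, a chain of type V collagen that helps start type I fibrils, had ratios of 1.24 and 1.08 on the oxaliplatin arrays and of 0.71 and 0.43 on the vehicle arrays, with a mean of 0.86 ± 0.07 (SE, n = 4; limma adjusted p = 1.21e-04). It was higher in Cy5 on all 4 arrays, but here the oxaliplatin arrays had the higher ratios. Col2a1, the main collagen of cartilage, had ratios between 0.032 and 0.39, with a mean of 0.17 ± 0.06 (SE, n = 4; limma adjusted p = 0.0496). That call sat at the threshold and was lost under 6 of 11 alternatives. The chains of type XI collagen, a minor partner of type II, were the fibrillar collagens called lower in Cy5. Col11a2 had ratios of -0.44 and -0.17 on the oxaliplatin arrays and of -1.04 and -1.09 on the vehicle arrays, with a mean of -0.69 ± 0.07 (SE, n = 4; limma adjusted p = 2.44e-04). Both vehicle arrays lay below both oxaliplatin arrays. Col11a1 had ratios between -0.48 and -0.077 and a mean of -0.34 ± 0.076 (SE, n = 4; limma adjusted p = 0.00848).

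Basement membrane collagens were represented by 2 of 6 genes, both called higher in Cy5. Col4a1 encodes a chain of the type IV network found in nearly all basement membranes. Its ratios were 1.05 and 0.94 on the oxaliplatin arrays and 1.53 and 1.23 on the vehicle arrays, with a mean of 1.19 ± 0.07 (SE, n = 4; limma adjusted p = 3.07e-05). All 4 arrays lay near or above a 2-fold difference, and the vehicle arrays lay above the oxaliplatin arrays. Col4a4, a chain of the specialised type IV network of filtering membranes, had ratios between 0.18 and 0.38 on the 4 arrays.

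Both multiplexins of the reference were tested, and they differed from each other. Col15a1, found in the basement membrane zone of vessels, muscle and peripheral nerve, had ratios of 1.71 and 1.99 on the oxaliplatin arrays and of 2.06 and 1.91 on the vehicle arrays, with a mean of 1.92 ± 0.07 (SE, n = 4; limma adjusted p = 4.43e-06). Col18a1, a vascular and epithelial basement membrane collagen that is the source of endostatin, had ratios between 0.016 and 0.12 on all arrays, with a mean of 0.066 ± 0.057 (SE, n = 4; limma adjusted p = 0.359). It was not called.

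Of the 4 FACIT collagens tested, which sit on the surface of fibrils, 2 were called higher and 2 lower. Col14a1, found on type I fibrils, had ratios of 2.18 and 2.23 on the oxaliplatin arrays and of 2.05 and 2.75 on the vehicle arrays. These overlapped between the groups, and the mean was 2.30 ± 0.11 (SE, n = 4; limma adjusted p = 1.29e-05). Col16a1 had ratios between -0.39 and -0.10, with a mean of -0.24 ± 0.07 (SE, n = 4; limma adjusted p = 0.0249). Col9a2, a chain of the type IX collagen of cartilage fibrils, had ratios of 0.085 and -0.12 on the oxaliplatin arrays and of -0.45 and -0.27 on the vehicle arrays, with a mean of -0.19 ± 0.07 (SE, n = 4; limma adjusted p = 0.0486). With each array centred on its median and no loess, Col16a1 and Col9a2 had mean ratios of 0.18 and 0.043, above 0, so the sign of both depends on the normalisation. The Col9a2 call was lost under 6 of 11 alternatives and the Col16a1 call under 3.

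The remaining classes held few genes. Col6a2, a chain of the beaded filaments of type VI collagen, had ratios of 0.39 and 0.95 on the oxaliplatin arrays and of 0.077 and -0.30 on the vehicle arrays. Its mean of 0.28 ± 0.11 (SE, n = 4; limma adjusted p = 0.0641) was not called, although without oxaliplatin replicate 1 it was 0.42 (limma adjusted p = 0.00465) and without oxaliplatin replicate 2 it was 0.14. Its ratio was the only one with an SE above 0.1 besides that of Col14a1. Col7a1, which forms the anchoring fibrils beneath epithelia, had ratios between -0.51 and -0.29 on all arrays and a mean of -0.43 ± 0.06 (SE, n = 4; limma adjusted p = 0.00146). Col23a1, a transmembrane collagen, had ratios of -0.16 and -0.046 on the oxaliplatin arrays and of -0.64 and -0.70 on the vehicle arrays, with a mean of -0.39 ± 0.06 (SE, n = 4; limma adjusted p = 0.00158). Col26a1 had ratios of 0.51 and 0.82 on the oxaliplatin arrays and of 0.84 and 0.98 on the vehicle arrays, with a mean of 0.79 ± 0.07 (SE, n = 4; limma adjusted p = 1.94e-04). The other 4 collagen genes, Col4a4, Col5a3, Col8a1 and Col9a1, had mean ratios of 0.20 to 0.29 and were all called higher.

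In the 12 settings of processing and of left-out arrays that were run, 8 genes were called higher in each: Col1a1, Col1a2, Col3a1, Col4a1, Col5a1, Col14a1, Col15a1 and Col26a1. Lower calls in each setting numbered 3, for Col7a1, Col11a2 and Col23a1. The share of all genes called in each setting was not counted. Without vehicle replicate 1 fewer collagen genes were called in both directions, and so were fewer of all genes.

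Genes with several probes did not always give 1 answer. Each gene is represented by its brightest probe. The dimmer Col1a1 probe had a mean ratio of 1.06 against 2.51, and the dimmer Col14a1 probe 0.45 against 2.30. The dimmer probe of Col4a1 had a mean ratio of -0.016 against 1.19, and that of Col26a1 -0.067 against 0.79. The calls of Col4a1 and Col26a1, and the size of the Col1a1 and Col14a1 ratios, thus rest on the brighter probe. Mean log2 signals of the dimmer probes of Col4a1, Col14a1 and Col26a1 were 7.1 or less, and that of Col1a1 was 10.72. The dimmer Col9a1 probes, at log2 signals of 7.1 and 7.0, had mean ratios of 0.24 and 0.42, against 0.29 for the brightest. Whether low signal moved the ratios of the dimmer probes was not tested. The 3 probes of Col11a1 lay between -1.03 and -0.34, and those of Col11a2, Col23a1 and Col9a1 had the same sign.

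**Figure D2:**
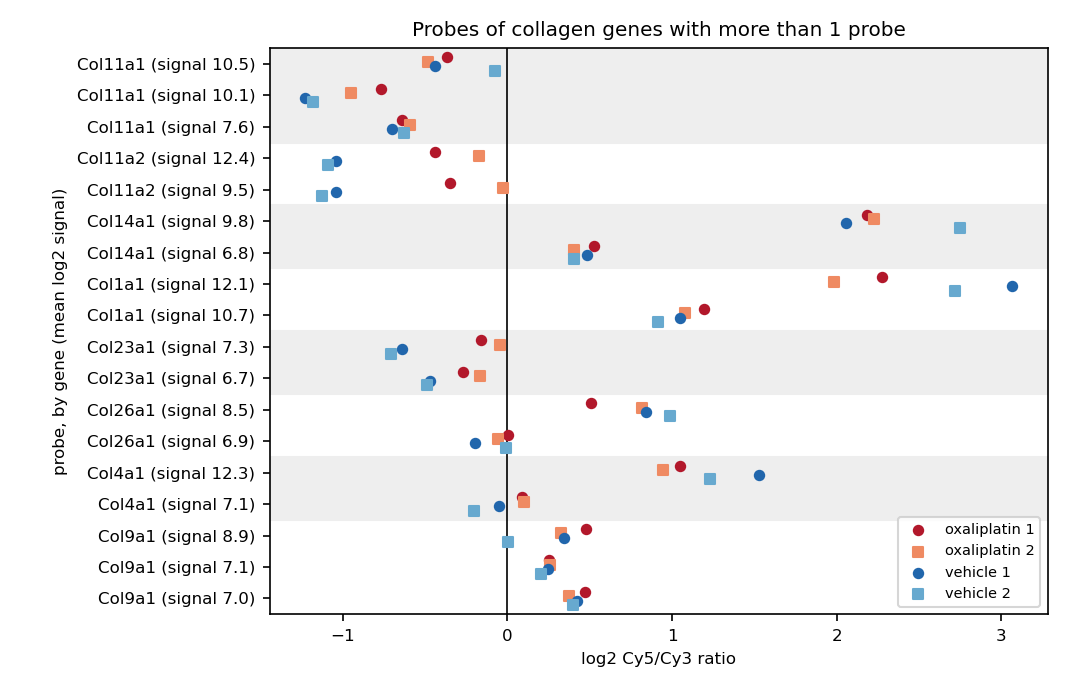
Log2 Cy5/Cy3 ratio on each of the 4 arrays (x axis) of every probe of the collagen genes with several probes (y axis, with the probe's mean log2 signal in brackets). The brighter and the dimmer probe lie far apart for Col1a1, with means of 2.51 and 1.06, and for Col4a1, with means of 1.19 and -0.016.

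Genes that make, bind and break down collagen were counted in the same way, to be read against the 28.5% of all genes called higher and the 26.0% called lower. Of 22 genes of collagen synthesis and crosslinking tested, 6 were called higher in Cy5, near the share of all genes, and 11 lower, with a median log2 ratio of -0.16. The difference between these lists and the collagens was not tested. Pcolce, an enhancer of procollagen processing, was higher by 1.14 ± 0.07, P4ha3, a prolyl hydroxylase, by 0.67 ± 0.06 and Loxl1, a crosslinking enzyme, by 0.67 ± 0.06 (SE, n = 4; limma adjusted p of 4.64e-05, 1.56e-04 and 1.63e-04). The lower calls of this list included P3h3 at -0.64 ± 0.06, P3h4 at -0.69 ± 0.07 and Plod1 at -0.72 ± 0.08 (SE, n = 4). Of 7 collagen receptors 3 were called higher and 2 lower. The discoidin-domain receptor Ddr2, which binds fibrillar collagen, was higher by 2.00 ± 0.07, and the integrin chain Itga1 by 0.53 ± 0.07, while Mrc2, an endocytic collagen receptor, was lower at -0.38 ± 0.06 (SE, n = 4). Of 9 genes of collagen breakdown 6 were called higher and 1 lower. The higher calls included the protease inhibitors Timp1 at 0.99 ± 0.13, Timp2 at 0.46 ± 0.07 and Timp3 at 0.70 ± 0.08 (SE, n = 4). The protease Ctsk was higher by 2.07 ± 0.08, and Mmp14, a membrane collagenase, by 0.89 ± 0.09, while Timp4, an inhibitor of such enzymes, was lower at -1.38 ± 0.06 (SE, n = 4).

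Of 18 genes of fibril-associated matrix 13 were called higher and 1 lower, with a median log2 ratio of 0.41. Among these, Dcn, a proteoglycan that binds fibrils, was higher by 1.81 ± 0.09, Fmod by 1.67 ± 0.09 and the microfibril gene Mfap5 by 2.19 ± 0.14 (SE, n = 4). Of 10 basement membrane partners 3 were called higher and 3 lower, near the shares of all genes, with a median of -0.12. Sparc was lower at -0.53 ± 0.10, Lama1 at -0.25 ± 0.07 and Lama5 at -0.22 ± 0.06 (SE, n = 4). Nid2, a laminin-binding partner of type IV collagen, was higher by 0.83 ± 0.06, and the laminin chain Lamc1 by 0.46 ± 0.06 (SE, n = 4).

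Markers of the cells that make collagen were read beside these ratios. Of 13 meningeal fibroblast markers 10 were called higher in Cy5 and 1 lower, with a median ratio of 0.72, against 13 and 6 of the 21 collagens. Dpp4 was higher by 3.78 ± 0.09 and Foxc2, a transcription factor of mesenchyme, by 1.20 ± 0.06 (SE, n = 4), and Dcn and Lum stand on both this list and the fibril-associated list. Their summed signal was 98686 to 102625 in Cy5 on the oxaliplatin arrays and 99903 to 106128 on the vehicle arrays, against 69817 to 79099 and 89507 to 103461 in Cy3. Of 13 endothelial markers 3 were called higher and 3 lower, close to the 28.5% and 26.0% of all genes, with a median of 0.0086: Cldn5, a tight-junction gene of brain vessels, was lower at -1.18 ± 0.10, Esam lower at -0.49 ± 0.06 and Ocln higher by 0.52 ± 0.07 (SE, n = 4). Their summed signal was 30137 to 30153 in Cy5 on the oxaliplatin arrays and 30972 to 32115 on the vehicle arrays, and 28297 to 35082 in Cy3 over all 4 arrays. Of 11 mural cell markers 3 were called higher and 5 lower, with a median of -0.0057: Acta2, the smooth muscle actin, was higher by 0.75 ± 0.07, and Abcc9 and Tagln were lower at -0.42 ± 0.06 and -0.53 ± 0.08 (SE, n = 4). Their summed signal was 15278 to 15377 in Cy5 and 15598 to 16763 in Cy3 on the oxaliplatin arrays, and 16246 to 16608 and 16364 to 17618 on the vehicle arrays. The difference between the fibroblast list and the vessel lists was not tested.

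Of the 12 lists, the markers of Schwann cells and sensory ganglion neurons had the highest median ratios. All 10 Schwann cell markers tested were called higher in Cy5, with a median ratio of 2.56: Egr2, the regulator of peripheral myelination, by 4.66 ± 0.08 and Pmp2 by 2.86 ± 0.06 (SE, n = 4). Their summed signal was 69357 to 70348 in Cy5 and 9724 to 11177 in Cy3 on the oxaliplatin arrays, and 72014 to 75723 and 10167 to 11419 on the vehicle arrays. All 10 sensory ganglion neuron markers tested were called higher, with a median of 3.90: Avil by 4.91 ± 0.09 and the heat and capsaicin channel Trpv1 by 2.75 ± 0.06 (SE, n = 4). Their summed signal was 174476 to 186918 in Cy5 and 8567 to 14719 in Cy3 on the oxaliplatin arrays, and 201656 to 202711 and 8193 to 14014 on the vehicle arrays. Of the 11 spinal cord neuron markers 1 was called higher and 6 lower, with a median of -0.38, Lbx1, Slc6a5 and Slc17a6 lying at -1.22, -1.30 and -0.82. Of 15 central glia markers 1 was called higher and 11 lower, with a median of -1.06, the myelin genes Mog and Mbp lying at -1.42 and -1.08. Fibroblasts of the meninges, of vessel walls and of nerve and ganglion sheaths all make fibrillar collagens, and the part of each in the collagen ratios was not tested.

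**Figure D3:**
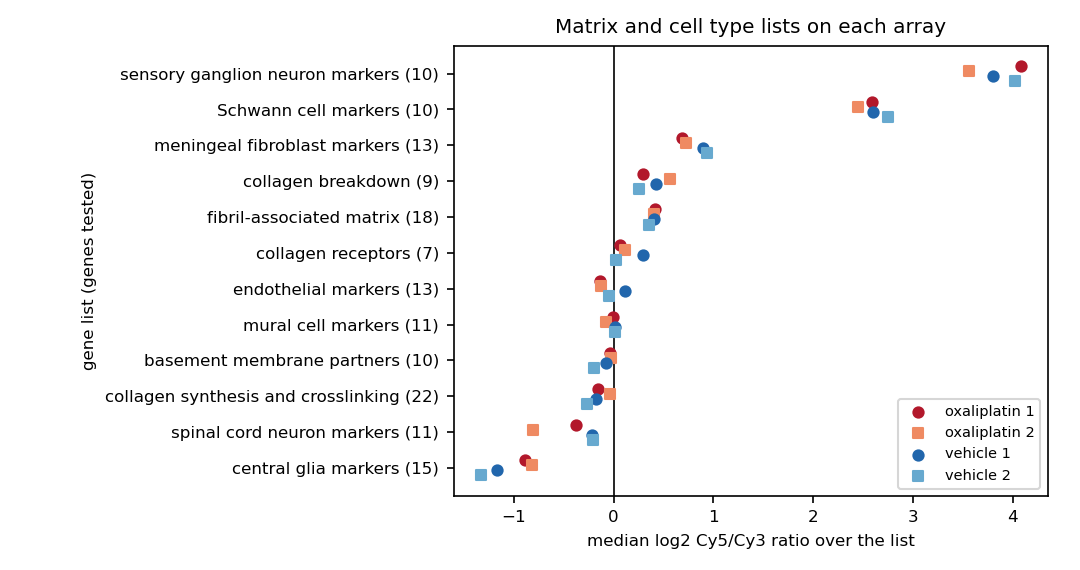
Median log2 Cy5/Cy3 ratio of each gene list on each of the 4 arrays (x axis), with lists on the y axis. The sensory ganglion and Schwann cell lists lie furthest to the right on every array, the meningeal fibroblast list lies near 0.7 to 0.9, the endothelial and mural lists lie near 0, and central glia lie to the left.

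The second comparison, the one named in the study's design, asks whether the ratios differed between the oxaliplatin and the vehicle arrays. Collagen transcripts did not differ beyond the spread between arrays after adjustment: 0 of 21 collagen genes passed the threshold by limma (0% of all genes), with a smallest adjusted p of 0.297 among them and 0.0955 among all genes. At an unadjusted p under 0.05, 8 collagen genes stood out, 5 higher and 3 lower on the oxaliplatin arrays, against 14.5% of all genes (8.65% higher and 5.83% lower). Groups of arrays that did not overlap were found for 12 of the 21, 7 with the oxaliplatin arrays above and 5 below, against 48.7% of all genes (26.7% above and 22.0% below). The median difference was -0.051 over the collagen genes and 0.0057 over all genes. These are differences in log2 Cy5/Cy3 ratio, oxaliplatin minus vehicle.

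Col1a1 had the lowest difference, -0.77 ± 0.16 (SE, n = 2 arrays a group; limma adjusted p = 0.297). Next came Col4a1 at -0.39 ± 0.14, Col1a2 at -0.32 ± 0.12 and Col3a1 at -0.32 ± 0.14, where Col1a2 and Col3a1 turned to 0.051 and 0.094 when ratios were scaled between arrays, and Col26a1 at -0.25 ± 0.14. In each of these 5 genes both vehicle arrays lay above both oxaliplatin arrays. At the other end were Col6a2 at 0.78 ± 0.21, Col11a2 at 0.76 ± 0.13, Col5a1 at 0.59 ± 0.14, Col23a1 at 0.57 ± 0.12 and Col9a2 at 0.34 ± 0.13, with both oxaliplatin arrays above both vehicle arrays in each. These 10 were picked by their unadjusted p for this same difference, a choice that favours groups of arrays that do not overlap. None of the 10 passed the threshold. Several moved by over 1.5 times with 1 array left out: Col3a1 was -0.15 without oxaliplatin replicate 1 and -0.49 without oxaliplatin replicate 2, and Col26a1 was -0.097 and -0.40. Col4a1 was -0.24 without vehicle replicate 1, and Col6a2 was 0.49 without oxaliplatin replicate 2. For Col1a1, Col4a1 and Col26a1 the dimmer probe gave differences of the other sign, 0.15, 0.22 and 0.076. Without oxaliplatin replicate 1, 4 collagen genes passed the threshold: Col11a2 at 0.89 (limma adjusted p = 0.0267), Col6a2 at 1.06 (0.0295), Col23a1 at 0.63 (0.0439) and Col1a1 at -0.91 (0.0337). In that refit 721 genes in all were called higher and 577 lower, and the lone oxaliplatin array was assumed to vary like the vehicle arrays. The largest limma adjusted p over the alternatives run was 0.462 for Col1a1, 0.831 for Col11a2 and 0.999977 for both Col6a2 and Col23a1. The difference of Col23a1 was 0.22 with median centring and 1.04 with the scanner log ratio.

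**Figure D4:**
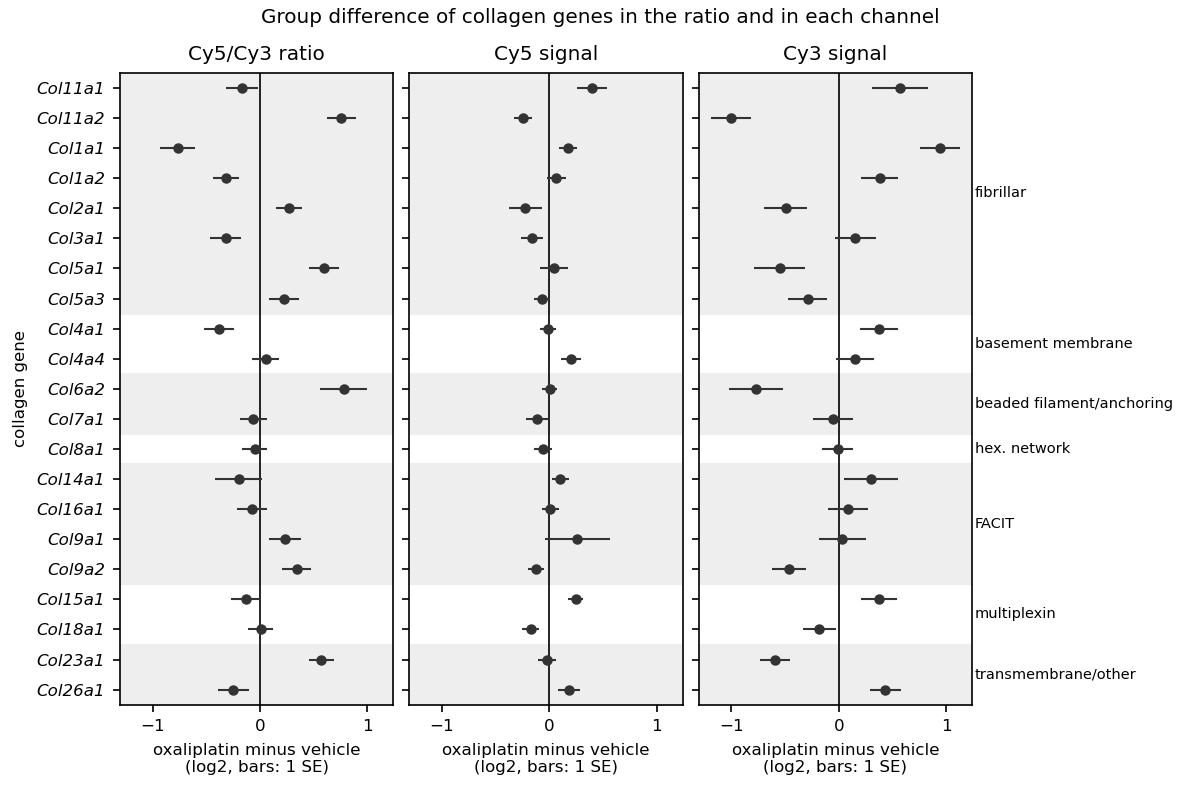
Difference of the log2 ratio and of each channel, oxaliplatin minus vehicle (x axis), for the 21 collagen genes tested (y axis), in 3 panels, with bars of 1 SE. Col1a1 lies at -0.77 in the ratio, 0.17 in Cy5 and 0.94 in Cy3, and Col6a2 at 0.78, 0.0045 and -0.77.

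The 2 channels were then read apart. In Cy5, labelled as RNA of the treated rats, 0 of 21 collagen genes were called (limma; 0% of all genes), 3 had an unadjusted p under 0.05 against 20.2% of all genes, and the smallest adjusted p was 0.210. The arrays of the groups did not overlap for 11 collagen genes, against 59.4% of all genes. Of the 10 genes above, the Cy5 differences were -0.24 for Col11a2, 0.18 for Col26a1, 0.17 for Col1a1, -0.17 for Col3a1 and -0.12 for Col9a2, and lay between -0.025 and 0.062 for the other 5. Without normalisation between arrays those of Col1a2, Col5a1, Col6a2 and Col26a1 were below 0. With 1 array left out, Col26a1 ranged from 0.067 to 0.30, Col3a1 from -0.27 to -0.062 and Col1a1 from 0.11 to 0.24, the low size of Col26a1 coming without oxaliplatin replicate 2 and those of Col3a1 and Col1a1 without vehicle replicate 2. In Cy3, labelled as untreated on every array, 0 of 21 were called (limma; 0% of all genes), 6 had an unadjusted p under 0.05 against 20.8%, and the smallest adjusted p was 0.157. The arrays did not overlap for 14, against 58.0% of all genes. The Cy3 differences were 0.94 for Col1a1, -1.002 for Col11a2, -0.77 for Col6a2, -0.59 for Col23a1, -0.55 for Col5a1 and -0.47 for Col9a2. They were 0.43 for Col26a1, 0.38 for Col1a2, 0.37 for Col4a1 and 0.15 for Col3a1, which was -0.016 without normalisation between arrays. Without oxaliplatin replicate 2 Col6a2 was -0.48, Col1a2 0.21 and Col3a1 0.36, and without oxaliplatin replicate 1 Col3a1 was -0.053. Without vehicle replicate 1 Col4a1 was 0.20, Col5a1 -0.84 and Col3a1 0.064, and without vehicle replicate 2 Col5a1 was -0.26 and Col3a1 0.24. For each of the 10 genes except Col3a1 the difference was thus larger in size in Cy3 than in Cy5. Cy3 is the channel labelled untreated on both groups of arrays. For Col3a1 the values were -0.17 in Cy5 and 0.15 in Cy3. These 10 genes were picked by their ratio difference in the same data, and their SEs were also larger in Cy3. The SE was 0.19 in Cy3 and 0.084 in Cy5 for Col1a1, and 0.25 and 0.070 for Col6a2. How many of all genes differed more in Cy3 than in Cy5 was not counted.

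The signals of each array are given for 4 of the genes picked above by their ratio difference. Col1a1 had log2 Cy5 signals of 13.40 and 13.45 on the oxaliplatin arrays and of 13.32 and 13.19 on the vehicle arrays. Its log2 Cy3 signals were 11.12 and 11.47 on the oxaliplatin arrays and 10.25 and 10.47 on the vehicle arrays, so the arrays differed more in Cy3 than in Cy5. Col6a2 had log2 Cy5 signals of 12.12, 12.10, 12.09 and 12.11 on oxaliplatin replicates 1 and 2 and vehicle replicates 1 and 2, nearly the same level, and log2 Cy3 signals of 11.73, 11.15, 12.01 and 12.41. Col11a2 had log2 Cy5 signals of 11.98 and 11.85 on the oxaliplatin arrays and 12.12 and 12.19 on the vehicle arrays, and log2 Cy3 signals of 12.42 and 12.02 on the oxaliplatin arrays and 13.16 and 13.28 on the vehicle arrays. Col4a1 had log2 Cy5 signals of 12.89, 12.89, 12.88 and 12.93, and log2 Cy3 signals of 11.84 and 11.95 on the oxaliplatin arrays and 11.35 and 11.70 on the vehicle arrays. The Cy5 levels of Col4a1 and Col6a2 were nearly equal on the 4 arrays, while the groups of Col1a1 and Col11a2 did not overlap in Cy5 either. In Cy3 the groups of all 4 genes did not overlap. Over all genes tested, the groups did not overlap for 58.0% in Cy3 and 59.4% in Cy5. Leaving out vehicle replicate 1 gave calls of Col11a1 (0.56, limma adjusted p = 0.0365) and Col9a1 (0.69, 0.0161) in Cy5 and of Col11a2 (-1.06, 0.0470) in Cy3, where 2938 and 2165 of all genes were called higher and lower in Cy5 and 1249 and 534 in Cy3.

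**Figure D5:**
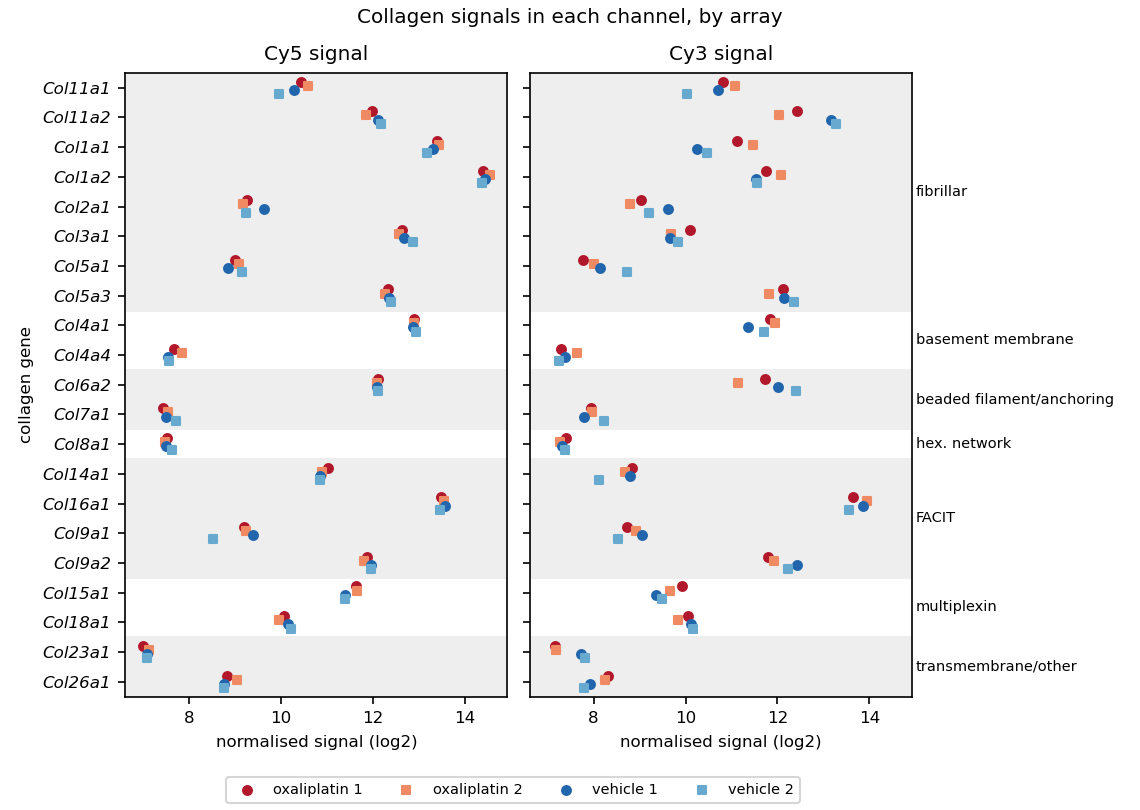
Normalised log2 signal (x axis) of each collagen gene (y axis) in Cy5 (left panel) and in Cy3 (right panel) on the 4 arrays. In Cy5 the 4 arrays of Col6a2 lie between 12.09 and 12.12, while in Cy3 they lie between 11.15 and 12.41.

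The marker lists did not differ between the groups past the threshold: 0 genes of any of the 12 lists of collagen partners and cell markers were called by limma for oxaliplatin minus vehicle. The median difference was -0.036 for meningeal fibroblast markers, -0.038 for endothelial markers, 0.0054 for mural cell markers, -0.11 for Schwann cell markers, -0.13 for sensory ganglion neuron markers and 0.19 for central glia markers, against 0.0057 for all genes. The part of these in the differences of the collagens was not tested.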

How the data were processed

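Agilent 2-colour arrays measured RNA of the dorsal horn on 2 oxaliplatin and 2 vehicle arrays, with groups and replicate numbers taken from the sample titles. The members, classes and lists were chosen with earlier results of these data known. Per the file headers, the deposited scanner files hold the median intensity of each spot and of its background in each channel, made with Agilent Feature Extraction 10.7.1.1 (8.5.1.1 in the submitters' processing notes). The authors' value table holds log10 Cy5/Cy3 ratios, which matched the scanner log ratio by spot number within 0.0050; the column medians were -0.00277, 0, -0.00492 and -0.00316. The scanner flags, other values per the file headers, mark spots well above background, saturated or outlying.

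Intensities were corrected with normexp (offset 50) and normalised by loess within arrays in limma 3.58.1 (R 4.3.3), with control and outlier spots at weight 0 and then left out. Signals of single channels were further normalised by Aquantile. Spots of a probe were averaged, and of 30367 probes 30358 were complete and 26721 were kept (26004 with the filter on Cy5 only). Accessions gave 18758 probes a symbol, and a gene is its brightest kept probe (23437 genes, 14248 with a symbol). Each comparison used lmFit and eBayes over the group means, two-sided, with residual df of 2 and a prior df of 4.73, and p-values were adjusted over all genes by Benjamini-Hochberg. In simulated data for oxaliplatin minus vehicle with 23437 genes, 77% of 100 genes changed 2-fold were recovered. Of 100 changed 4-fold 99% were recovered, and 7 unchanged genes were called. These shares hold for the simulated spread only and do not show what would be recovered on the measured arrays. There the smallest limma adjusted p over all genes was 0.0955, and group and slide cannot be told apart.

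Named genes were 15 collagens fixed by name, the 5 with the smallest unadjusted p in each direction of the ratio and of the group difference, those whose probes disagreed in sign, and up to 3 members of each other list with the smallest unadjusted p. Some genes picked by this rule are left out of the text. Further members of the synthesis, breakdown and basement membrane partner lists are named outside the rule, to show how others of each list went. The oxaliplatin arrays shared a scan and the vehicle arrays had a scan each, and a random block by scan could not be fitted. Alternatives were median centring, the scanner log ratio, no background correction, scaling, other filters, the mean over probes, other channel normalisations, each array left out, and the replicate block.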

Additional observations from a re-analysis of the deposited data

How the results depend on the processing

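The ratio over all arrays kept its direction and its call for most collagen genes. Exceptions in sign were Col16a1 (0.18) and Col9a2 (0.043) with median centring and Col18a1 (-0.027) with the scanner log ratio. Leaving out 1 array gave 9 to 14 higher calls, 3 to 6 lower calls and a median of 0.18 to 0.26. For oxaliplatin minus vehicle in ratio, the median over collagens was 0.035 with median centring and 0.094 with scaled ratios, and -0.048 to 0.025 with an array left out. Median centring turned Col11a1 (0.0073), Col15a1 (0.039) and Col16a1 (0.035). Scaled ratios turned Col1a2 (0.051), Col3a1 (0.094), Col14a1 (0.13) and Col15a1 (0.15). Col18a1 was -0.065 with the scanner log ratio and -0.0023 without background correction, and Col11a1 was 0.074 as a mean over probes. With an array left out Col15a1 ranged from -0.27 to 0.012, Col18a1 from -0.048 to 0.059 and Col16a1 from -0.19 to 0.047. The ranges were -0.17 to 0.043 for Col7a1, -0.35 to 0.014 for Col11a1 and -0.54 to 0.15 for Col14a1.

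In Cy5 without normalisation between arrays the median was -0.15, beside -0.18 for all genes, and Col1a2 (-0.072), Col5a1 (-0.19), Col6a2 (-0.14) and Col26a1 (-0.043) turned. Col6a2 was -0.010 with quantile normalisation, and Col4a1 was 0.051 as a mean over probes. With an array left out there were 0 to 2 higher calls, and the ranges were -0.097 to 0.047 for Col23a1, -0.0077 to 0.017 for Col6a2, -0.11 to 0.19 for Col5a1, -0.012 to 0.14 for Col1a2 and -0.040 to 0.011 for Col4a1. In Cy3 without that normalisation the median was -0.18, beside -0.20 for all genes, and Col3a1 was -0.016. Col3a1 ranged from -0.053 to 0.36 with an array left out.

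With the replicate number as a block, 0 collagen genes were called in any of the group comparisons, and 1 gene of all was called lower in ratio. Arrays of the same number did not deviate together (correlation -0.22). The crossed pairing, chosen after seeing the data, called 3 collagen genes higher and 1 lower in ratio. Over all 23437 genes it called 356 higher and 180 lower. Ratios of dim probes can be limited by signal over background, which was not tested.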

Other observations

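Ogn, a small proteoglycan of connective tissue that stands on the fibril-associated list, had a log2 Cy5/Cy3 ratio of 2.08 on oxaliplatin replicate 1 and of 0.40, 0.41 and 0.36 on oxaliplatin replicate 2 and vehicle replicates 1 and 2. It was singled out after its values were seen. Its group difference of 0.85 ± 0.47 (SE, n = 2 arrays a group; limma adjusted p = 0.446) rests on that array. Among genes that act on collagen, the smallest unadjusted p of its list for oxaliplatin minus vehicle was that of Timp4, an inhibitor of matrix proteases, at 0.70 ± 0.12, of Bmp1, which trims procollagen, at 0.58 ± 0.13, and of Itga1, a collagen receptor chain, at -0.57 ± 0.13 (SE, n = 2 arrays a group; limma adjusted p = 0.297 for each). None passed the threshold. In Cy5 their differences were -0.28, -0.33 and -0.13, and in Cy3, labelled untreated on both groups, they were -0.98, -0.91 and 0.45.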
